A study of Mus musculus with 9 samples.

Results

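The antiviral type I interferon response genes described here are 36 interferon-stimulated genes chosen by symbol from the 23366 genes of a bulk RNA-seq table of tumour-infiltrating CD8+ T cells. The list holds RNA sensors, signalling proteins and antiviral effectors, and it was meant to leave out the guanylate-binding and immunity-related GTPases. All 36 symbols were in the table. Of these, 35 reached a mean of 1 FPKM over the 9 libraries and were tested, and Ifi44 did not. The study had 4 libraries from CD8+ T cells of IL27ra KO mice, in which the gene of the receptor chain specific to IL-27 is knocked out, and 5 from wild type (WT) mice. Every mouse was C57BL/6 and carried a B16F10 melanoma, a transplantable mouse melanoma line, from which the cells were isolated. The libraries were made from small bulk lysates by an adapted SMART-Seq 2 protocol, and values are FPKM (fragments per kilobase of transcript, scaled to sequencing depth and TMM-normalized by the authors). The question the design addresses is which genes of tumour-infiltrating CD8+ T cells depend on IL-27. The labels give no age, no sex and no statement that each library came from its own mouse, so p-values measure the spread between these libraries, which may in part be technical.

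Type I interferons bind the receptor made of IFNAR1 and IFNAR2, which signals through the kinases JAK1 and TYK2. These phosphorylate STAT2, which acts with IRF9 in the complex ISGF3, and ISGF3 binds interferon-stimulated response elements (ISRE) in the promoters of antiviral genes. Interferon gamma acts chiefly through a different element, named GAS. In tumours, T cells, macrophages and dendritic cells all respond to interferon, so RNA of these genes need not come from T cells.

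The ISRE is the sequence that these genes are best known for, so the promoters of 5 members are shown, 3 whose RNA passed the test below (Isg15, Ifit1 and Oas1a) and 2 whose RNA did not (Ifit3 and Bst2). The sequences are RefSeq's, in build GRCm38.p6, and give the 250 bases before the annotated start, 5′ to 3′ on the gene's strand. Capitals mark the ISRE core on either strand, which is GAAA, any 2 bases and GAAA, or TTTC, any 2 bases and TTTC where it lies on the opposite strand, and overlapping cores run together. The windows lie at chr4:156200819-156201068 on the minus strand for Isg15, chr19:34640639-34640888 on the plus strand for Ifit1 and chr5:120907526-120907775 on the minus strand for Oas1a. Those of the other two lie at chr19:34583279-34583528 on the plus strand for Ifit3 and chr8:71537473-71537722 on the minus strand for Bst2.
Isg15: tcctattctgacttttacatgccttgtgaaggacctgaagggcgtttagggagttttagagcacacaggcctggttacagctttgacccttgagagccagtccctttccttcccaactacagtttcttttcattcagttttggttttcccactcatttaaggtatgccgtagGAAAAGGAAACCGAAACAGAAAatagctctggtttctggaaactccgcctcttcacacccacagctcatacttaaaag
Ifit1: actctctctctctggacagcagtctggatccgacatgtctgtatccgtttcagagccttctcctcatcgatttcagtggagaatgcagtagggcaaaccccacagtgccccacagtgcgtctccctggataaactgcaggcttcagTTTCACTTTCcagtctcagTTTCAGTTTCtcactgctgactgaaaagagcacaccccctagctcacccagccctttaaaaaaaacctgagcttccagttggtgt
Oas1a: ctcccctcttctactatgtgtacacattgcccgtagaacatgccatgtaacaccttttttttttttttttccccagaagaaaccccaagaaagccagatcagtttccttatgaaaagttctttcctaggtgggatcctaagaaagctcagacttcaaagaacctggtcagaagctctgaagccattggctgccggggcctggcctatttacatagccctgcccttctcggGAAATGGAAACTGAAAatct
Ifit3: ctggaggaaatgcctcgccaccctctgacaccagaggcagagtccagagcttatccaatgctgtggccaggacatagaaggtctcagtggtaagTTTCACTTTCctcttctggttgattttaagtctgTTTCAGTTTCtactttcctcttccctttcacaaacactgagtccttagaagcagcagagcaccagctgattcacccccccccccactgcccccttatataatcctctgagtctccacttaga
Bst2: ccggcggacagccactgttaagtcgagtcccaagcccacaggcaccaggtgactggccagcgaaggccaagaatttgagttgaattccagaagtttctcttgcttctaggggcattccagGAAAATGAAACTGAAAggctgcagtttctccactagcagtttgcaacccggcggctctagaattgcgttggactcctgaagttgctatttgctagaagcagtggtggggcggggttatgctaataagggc

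Isg15 held 3 overlapping cores that began 78, 72 and 66 bases before the start, and Oas1a held 2 that began 20 and 14 bases before it. Ifit1 and Ifit3, 2 neighbours on chromosome 19, each held 2 separate cores. RefSeq promoter windows (250 bases before to 50 after the start) were found for 26 of the 36 members, or 72.2%, which is too few to speak for the list. The 26 members had 32 windows, since some genes have several annotated starts, and a gene is counted here if any of its windows holds a match. A core was present in 12 of those 26 members (46.2%), against 3.99% of the 27025 genes with a window. It was present in 5 of the 10 such members that passed the test and in 7 of the 16 that did not. A GAS match (TTCNNNGAA, either strand) was present in 6 of the 26 members (23.1%), against 9.55% of the genes with a window, and both elements overlapped in Bst2 alone. These are matches of letters in a window and no measure of binding.

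Across the members, RNA was higher in IL27ra KO libraries for 12 of 35 tested genes and lower for none. Both directions were called by limma at a Benjamini-Hochberg adjusted p under 0.05, adjusted over 10374 genes. Over all of those genes, 3.13% were called higher and 1.11% lower, or 4.24% in either direction, beside 34.3% higher among the members. The members were chosen with earlier results of these data known, so the gap from the background carries no test. The median log2 difference was 0.72 over the tested members and 0.02 over all genes, with 30 of 35 members above 0 beside 53.1% of all genes. Differences are on the log2(FPKM + 1) scale, IL27ra KO minus WT, and this scale understates the change of low genes. At an unadjusted p under 0.05, 19 of 35 members were higher and none was lower, beside 9.33% higher and 5.74% lower over all genes. Of the tested members, 3 had a WT mean under 1 FPKM (Oas2, Oasl1 and Mx2) and stayed in the test through their IL27ra KO values, and 2 of these were among the 12. The 12 were Oas1a, Oas2, Oas3, Oasl1 and Oasl2 of the 2′-5′ oligoadenylate synthetase (OAS) family, with Ifit1, Ifit2, Irf7, Usp18, Isg15, Slfn1 and Slfn5.

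**Figure D1:**
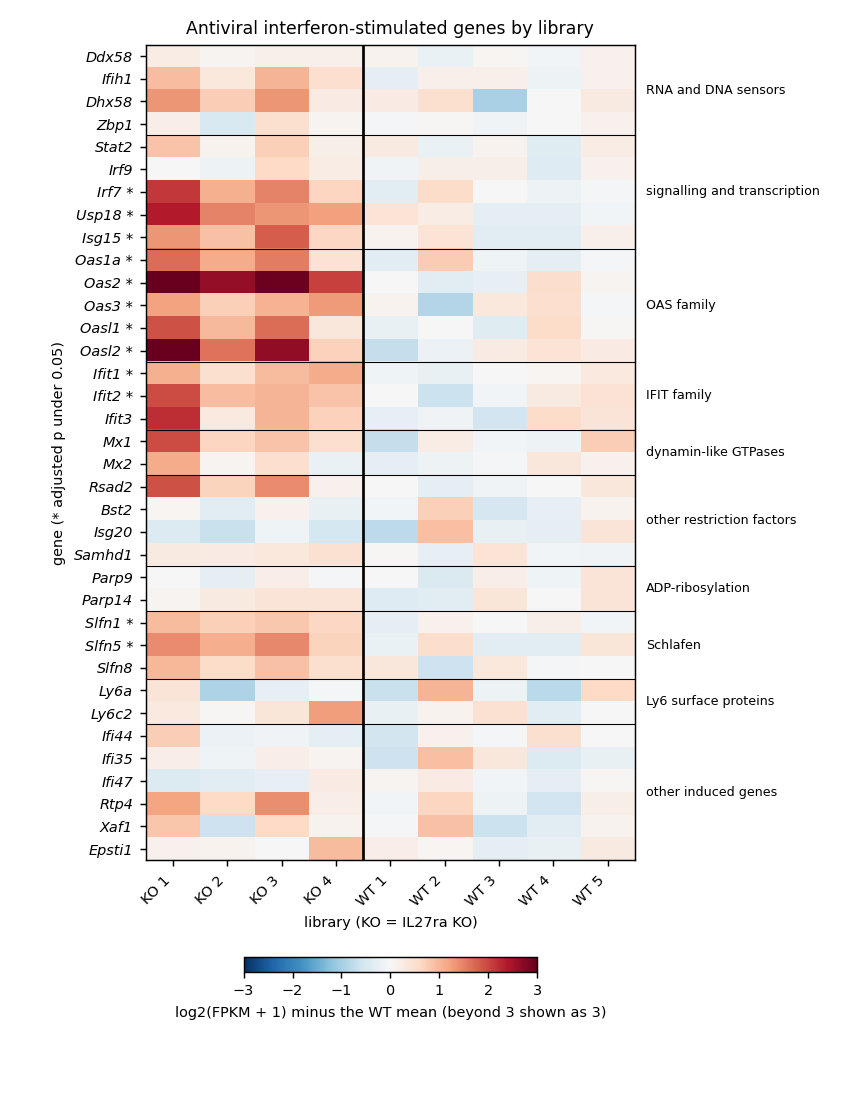
Heat map of the 36 members by role (rows) in the 4 IL27ra KO and 5 WT libraries (columns). Colour is log2(FPKM + 1) minus the WT mean, capped at 3 in either direction. Oas2 and Usp18 are raised in all 4 IL27ra KO libraries, and rows such as Zbp1, Parp9 and Bst2 show no split by genotype.

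Several properties of the libraries moved with genotype and stand beside every result here. Il27ra itself had 4.09, 6.50, 5.62 and 7.80 FPKM in IL27ra KO libraries and 25.7, 5.14, 15.2, 14.4 and 15.8 FPKM in WT libraries. Its log2 difference of -1.10 (SE 0.34) did not pass limma (adjusted p = 0.0996), the two-sided exact permutation p was 0.0635 where 0.0159 is the smallest possible, and the library labelled WT replicate 2 lay within the IL27ra KO range. Of 21 measured macrophage and monocyte markers, 20 rose in IL27ra KO libraries in limma, with a median log2 difference of 2.83. Their summed level ranged from 540.3 to 1623.1 FPKM in IL27ra KO libraries and from 76.1 to 345.2 FPKM in WT libraries, and IL27ra KO replicate 4 was the lowest of its group. Markers listed at 0 in some WT libraries were Cd14, Fcgr1, Fcgr3, Trem2 and Ms4a7, and none was at 0 in an IL27ra KO library. Of 7 tested dendritic cell markers, 5 rose (Itgax, Cd209a, Cd74, H2-Ab1 and H2-Aa), most of which macrophages can also express, with summed levels of 10 markers between 482.9 and 1842.7 FPKM in IL27ra KO libraries and between 106.5 and 529.3 FPKM in WT libraries. Zbtb46, a more specific dendritic cell marker, had a log2 difference of -0.25 and did not pass, and Flt3, Xcr1 and Clec9a were under the filter. Of 8 melanoma markers none rose, Kit fell, and 7 had differences above 0, with a median of 0.54. Their summed level was 542.0 FPKM in IL27ra KO replicate 4 and 1120.9 to 1275.3 FPKM in the other IL27ra KO libraries, against 358.7 to 1166.2 FPKM in WT libraries. None of 3 tested plasmacytoid dendritic cell markers passed, and Cox6a2 was listed at 0 in all 9 libraries. Of 15 CD8 T cell identity genes, 2 fell and the median log2 difference was -0.61, although these genes remained abundant in every library, at sums of 608.3 to 1545.3 FPKM in IL27ra KO libraries and 1231.0 to 1852.6 FPKM in WT libraries. In bulk RNA, a different number of cells of a type and a different amount of RNA per cell cannot be told apart. The mean level of the macrophage markers separated the genotypes without overlap, as 15 of the 21 markers did singly. The part of these markers in the members' differences therefore cannot be told apart from that of genotype. In a fit that also held the mean level of these macrophage markers, no member passed, beside 7 of all 10374 genes. At an unadjusted p under 0.05, 4 of 35 members were higher and 2 lower, beside 6.4% higher and 5.45% lower over all genes. The median member difference was 0.04, and 9 of the 12 stayed above 0. The median SE of the 12 was 0.55 in that fit and 0.26 without the markers.

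Among the sensors of foreign nucleic acid, none of 4 passed and the median log2 difference was 0.42. Ifih1, which encodes MDA5, a sensor of long double-stranded RNA, averaged 4.04 ± 1.15 FPKM in IL27ra KO libraries and 2.09 ± 0.410 FPKM in WT libraries (SD, n = 4 and n = 5). Its groups did not overlap, while its log2 difference of 0.69 (SE 0.21) had a limma adjusted p of 0.0924. Zbp1, a sensor of left-handed (Z-form) nucleic acid, had 18.1, 10.96, 22.1 and 16.6 FPKM in IL27ra KO libraries and 14.97, 15.9, 14.4, 15.7 and 16.9 FPKM in WT libraries. The IL27ra KO values lay on both sides of the narrow WT range, and the log2 difference was 0.08 (95% interval -0.36 to 0.51; limma adjusted p = 0.916). Ddx58, which encodes the RNA sensor RIG-I, had a log2 difference of 0.15 (95% interval -0.20 to 0.51), and Dhx58, which encodes their regulator LGP2, one of 0.91 (95% interval 0.24 to 1.58; limma adjusted p = 0.146).

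In signalling and transcription, 3 of 5 members rose. Irf7, the transcription factor that amplifies type I interferon production, had 51.8, 24.6, 33.1 and 18.2 FPKM in IL27ra KO libraries. WT libraries had 8.62, 16.8, 11.1, 9.90 and 11 FPKM of Irf7. The groups did not overlap, the IL27ra KO minimum of 18.2 FPKM stood just above the WT maximum of 16.8 FPKM, and the log2 difference was 1.33 (SE 0.28; limma adjusted p = 0.0150). Usp18, a protease that removes ISG15 from proteins and dampens signalling at IFNAR2, had 11.3, 5.62, 4.89 and 4.55 FPKM in IL27ra KO libraries, against 2.12, 1.74, 0.97, 0.96 and 1.23 FPKM in WT libraries. Every IL27ra KO library was above every WT library, with a log2 difference of 1.60 (SE 0.26; limma adjusted p = 0.0029). Isg15, a ubiquitin-like modifier and the substrate of Usp18, had 9.25, 6.58, 13.5 and 5.33 FPKM in IL27ra KO libraries, against 3.44, 4.43, 2.26, 2.26 and 3.53 FPKM in WT libraries. These groups did not overlap either, and the log2 difference was 1.16 (SE 0.26; limma adjusted p = 0.0192). Stat2 and Irf9, subunits of ISGF3, did not pass. Stat2 had a log2 difference of 0.46 (95% interval -0.01 to 0.93) and Irf9 one of 0.16 (95% interval -0.29 to 0.61).

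All 5 OAS genes rose in the fit with all libraries, but the count depended on the filter. Oas2 and Oasl1 were tested only through their IL27ra KO values, and with no filter Oas2 alone of the 5 passed. With a filter at 5 FPKM, 3 of the 5 were tested (Oas1a, Oas3 and Oasl2) and all 3 passed. Enzymatically active OAS proteins make 2′-5′ oligoadenylate when they bind double-stranded RNA, which activates the nuclease RNase L. Family membership alone does not give this activity, which was not measured here. Oas2 had 14.3, 8.56, 10.9 and 5.44 FPKM in IL27ra KO libraries, against 0.52, 0.23, 0.30, 1.21 and 0.63 FPKM in WT libraries. Its groups were far apart, and its mean was 16.9 times higher in IL27ra KO libraries, with a log2 difference of 2.74 (SE 0.26; limma adjusted p = 0.0004). Oasl2, an OAS-like protein, had 21.8, 5.41, 12.3 and 2.39 FPKM in IL27ra KO libraries, against 0.28, 0.84, 1.46, 1.77 and 1.47 FPKM in WT libraries. The groups did not overlap, but IL27ra KO replicate 4 was close to the WT values, and the log2 difference was 2.11 (SE 0.45; limma adjusted p = 0.0151). Oas3, the synthetase for the longest oligoadenylates, had 11.95, 8.16, 10.4 and 12.6 FPKM in IL27ra KO libraries, against 5.05, 2.03, 5.94, 6.90 and 4.46 FPKM in WT libraries. It did not follow the order of the other OAS genes, since IL27ra KO replicate 4 was its highest library, and its log2 difference was 1.06 (SE 0.26; limma adjusted p = 0.0358).

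The remaining OAS genes rose with overlapping groups. Oas1a, one of a cluster of near-identical mouse Oas1 genes, had 17.2, 11.3, 15.5 and 6.72 FPKM in IL27ra KO libraries, against 3.55, 8.65, 4.23, 3.64 and 4.56 FPKM in WT libraries. The overlap came from IL27ra KO replicate 4 and the library labelled WT replicate 2, and the log2 difference was 1.19 (SE 0.28; limma adjusted p = 0.0300). Oasl1, which in mice represses translation of Irf7 mRNA, had 5.12, 2.20, 4.26 and 1.08 FPKM in IL27ra KO libraries, against 0.41, 0.62, 0.27, 1.40 and 0.69 FPKM in WT libraries. IL27ra KO replicate 4 lay below WT replicate 4, and the log2 difference was 1.22 (SE 0.31; limma adjusted p = 0.0438).

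IFIT proteins bind viral RNA and block its translation, and 2 of 3 passed. Ifit1, which recognizes RNA caps that lack host methylation, had 7.95, 4.93, 7.15 and 8.19 FPKM in IL27ra KO libraries, against 2.89, 2.66, 3.24, 3.39 and 4.21 FPKM in WT libraries. All IL27ra KO values were above all WT values, and the log2 difference was 0.90 (SE 0.20; limma adjusted p = 0.0173). Ifit2 had 13.1, 6.00, 6.37 and 5.61 FPKM in IL27ra KO libraries, against 2.71, 1.34, 2.46, 3.45 and 3.93 FPKM in WT libraries. IL27ra KO replicate 1 stood well above the rest of its group, and the log2 difference was 1.19 (SE 0.27; limma adjusted p = 0.0240). Ifit3, which binds and stabilizes Ifit1 in human cells and shares reads with the near-identical Ifit3b, had 34.01, 8.23, 14.3 and 11.1 FPKM in IL27ra KO libraries, against 5.29, 6.00, 4.01, 9.93 and 8.83 FPKM in WT libraries. The groups overlapped, and its log2 difference of 1.06 (SE 0.35), as large as that of Oas3, did not pass (limma adjusted p = 0.128).

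**Figure D2:**
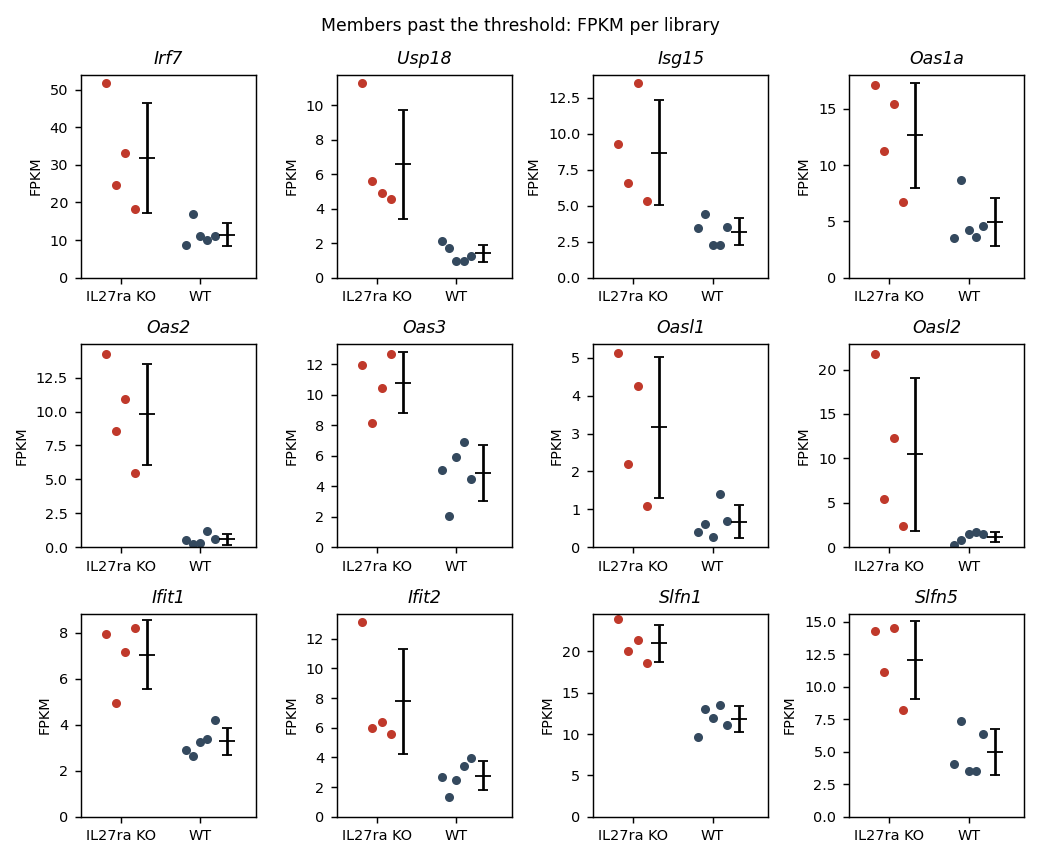
FPKM (linear axis from 0, scaled to each gene) of the 12 members that passed, with a point for each library, IL27ra KO left of WT, and bars for the mean ± SD. The groups do not overlap in 10 panels, and overlap in those of Oas1a and Oasl1.

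Schlafen genes, a family linked to growth control of T cells and to restriction of viruses, rose in 2 of 3 cases. Slfn1 had 23.8, 20.02, 21.4 and 18.6 FPKM in IL27ra KO libraries, against 9.64, 13.0, 11.99, 13.5 and 11.1 FPKM in WT libraries. The spread was small in both groups, which did not overlap, and the log2 difference was 0.78 (SE 0.18; limma adjusted p = 0.0224). Slfn5 had 14.3, 11.2, 14.6 and 8.20 FPKM in IL27ra KO libraries, against 4.03, 7.34, 3.52, 3.54 and 6.35 FPKM in WT libraries. The library labelled WT replicate 2 was the highest WT value and still lay below IL27ra KO replicate 4, and the log2 difference was 1.15 (SE 0.24; limma adjusted p = 0.0155). Slfn8, which shares sequence with Slfn9, averaged 9.99 ± 1.91 FPKM in IL27ra KO libraries and 5.76 ± 1.65 FPKM in WT libraries (SD, n = 4 and n = 5). Its groups did not overlap, but its log2 difference of 0.72 (SE 0.23) had a limma adjusted p of 0.103.

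None of the other roles had a member past the threshold. Mx1, a dynamin-like GTPase that restricts influenza virus and is truncated in many laboratory mouse strains, had 14.2, 5.17, 6.20 and 4.64 FPKM in IL27ra KO libraries, against 1.42, 3.60, 2.71, 2.53 and 5.60 FPKM in WT libraries. WT replicate 5 exceeded 2 of the IL27ra KO libraries, and the log2 difference was 0.99 (SE 0.32; limma adjusted p = 0.124). Mx2, its cytoplasmic relative, had a log2 difference of 0.38 (95% interval -0.21 to 0.97).

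Of 4 further restriction factors, Rsad2 (viperin, which makes a chain-terminating nucleotide) had a log2 difference of 1.03 (SE 0.32; limma adjusted p = 0.0981). Samhd1, which breaks down deoxynucleotides, had 21.4, 20.9, 22.2 and 24.4 FPKM in IL27ra KO libraries, against 17.9, 14.5, 23.9, 16.5 and 16.2 FPKM in WT libraries. WT replicate 3 lay among the IL27ra KO values, and the log2 difference was 0.32 (95% interval -0.08 to 0.72). Isg20, an RNA exonuclease, had 9.48, 7.88, 11.9 and 8.68 FPKM in IL27ra KO libraries, against 7.15, 25.1, 11.1, 10.6 and 17.2 FPKM in WT libraries. The most negative difference among the members was that of Isg20, at -0.43 (95% interval -1.06 to 0.20; limma adjusted p = 0.556), and the library labelled WT replicate 2 was its highest. Bst2 (tetherin, which holds budding virus at the cell surface) had 17.9, 13.8, 19.0 and 14.7 FPKM in IL27ra KO libraries, against 16.2, 28.7, 11.9, 14.5 and 18.7 FPKM in WT libraries. The WT range enclosed the IL27ra KO range, with a log2 difference of -0.08 (95% interval -0.60 to 0.43).

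The ADP-ribosylation genes did not separate. Parp9, a partner of the ubiquitin ligase Dtx3l, had 7.92, 6.27, 9.09 and 7.46 FPKM in IL27ra KO libraries, against 7.76, 5.50, 9.03, 7.09 and 10.4 FPKM in WT libraries. The values were interleaved, and the log2 difference was -0.03 (95% interval -0.46 to 0.41). Parp14, a mono-ADP-ribosyltransferase, had a log2 difference of 0.29 (95% interval -0.17 to 0.74).

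The Ly6 surface proteins were the most abundant members and did not pass. Ly6c2, found on monocytes and on memory CD8 T cells and near-identical to Ly6c1, had 291.9, 244.7, 304.5 and 567.5 FPKM in IL27ra KO libraries, against 202.1, 256.1, 327.9, 188.8 and 233.3 FPKM in WT libraries. IL27ra KO replicate 4 alone exceeded the WT range, and the log2 difference was 0.49 (95% interval -0.10 to 1.08; limma adjusted p = 0.445). Ly6a (Sca-1), a marker of activated T cells and stem cells, had 87.1, 34.4, 55.7 and 64.2 FPKM in IL27ra KO libraries, against 41.6, 136.8, 60.2, 37.3 and 100.8 FPKM in WT libraries. The WT libraries enclosed nearly the whole IL27ra KO range, and the log2 difference was -0.21 (95% interval -1.02 to 0.60).

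The last group holds induced genes of mixed function. Ifi47, in fact an immunity-related GTPase, had 33.7, 35.0, 37.7 and 53.2 FPKM in IL27ra KO libraries, against 47.2, 53.2, 42.5, 36.4 and 46.2 FPKM in WT libraries. IL27ra KO replicate 4 matched the top of the WT range while the other IL27ra KO libraries lay near its bottom, and the log2 difference was -0.19 (95% interval -0.62 to 0.24). Rtp4, Xaf1, Ifi35 and Epsti1 had log2 differences between 0.09 and 0.85, with the highest for Rtp4 (SE 0.28; limma adjusted p = 0.139). Ifi44 was under the filter, at 0.575 ± 0.573 FPKM in IL27ra KO libraries and 0.504 ± 0.372 FPKM in WT libraries (SD, n = 4 and n = 5), and was listed at 0 in WT replicate 1.

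**Figure D3:**
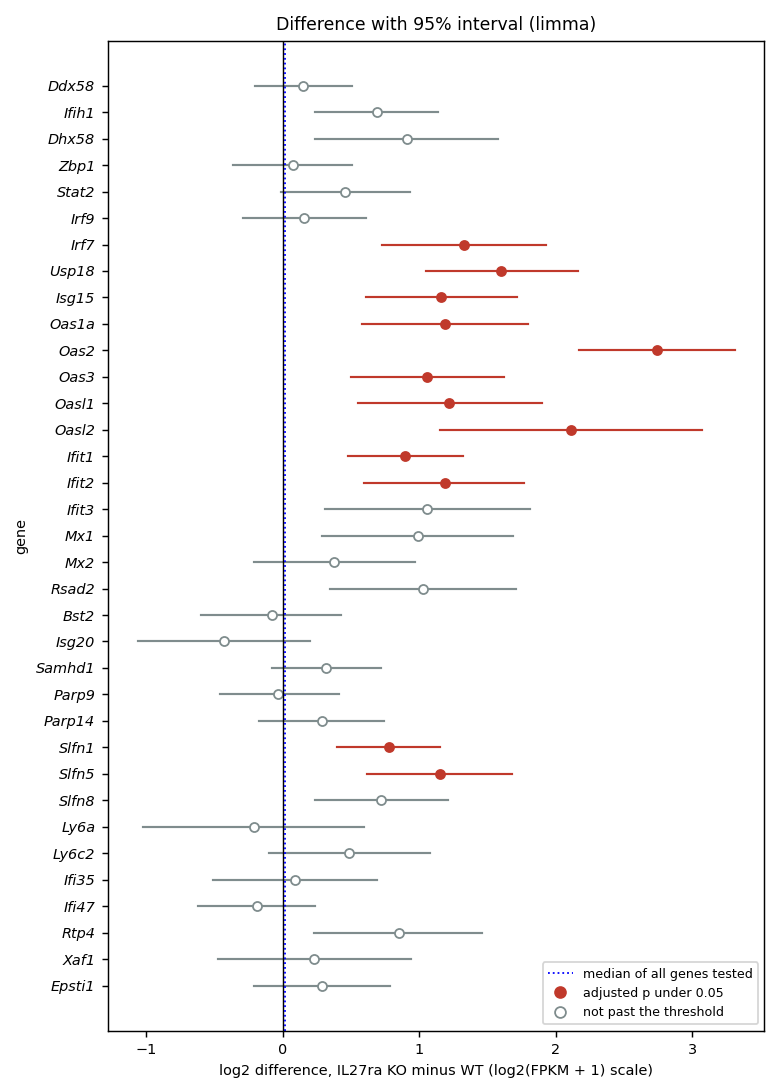
Log2(FPKM + 1) difference, IL27ra KO minus WT, with its 95% limma interval, for the 35 tested members in order of role, with filled points for those that passed and a dotted line at the median of all genes. The 12 that passed lie between 0.78 (Slfn1) and 2.74 (Oas2), and 5 members lie below 0.

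The IL27ra KO libraries differed in how many members were highest in them. Replicate 1 was the highest of the 9 libraries for 17 of 36 members (47.2%, against 11.7% of all genes tested), replicate 3 for 7 (beside 8.37%), replicate 4 for 6 (beside 10.2%) and replicate 2 for none (beside 6.59%). A WT library was the highest for the other 6 members, Isg20, Bst2, Xaf1, Parp9, Ifi35 and Ly6a, and in 5 of these it was the library labelled WT replicate 2, which was the highest for 24.7% of all genes. The lowest library was a WT one for 33 members, beside 67.6% of all genes. Non-overlap, with every IL27ra KO value above every WT value, occurred in 12 of 36 members (33.3%), beside 4.26% of all genes, and these included Ifih1 and Slfn8, which did not pass. The opposite, with every IL27ra KO value below every WT value, occurred in 0 members, beside 2.47% of all genes. IL27ra KO replicate 1 was above all 5 WT libraries in 24 members (66.7%, beside 19.9% of all genes). Replicate 2 was above them in 16 members (44.4%, beside 17.9%) and replicate 3 in 25 (69.4%, beside 18%). The mean log2(FPKM + 1) level of the 12 members that passed was 3.93, 3.18, 3.59 and 2.92 in IL27ra KO libraries and 1.91, 2.06, 1.94, 2.13 and 2.15 in WT libraries. These levels describe genes chosen for that difference and carry no test. For the other 24, it was 3.90, 3.30, 3.77 and 3.50 in IL27ra KO libraries and 3.11, 3.44, 3.21, 3.13 and 3.47 in WT libraries. In the second set IL27ra KO replicate 2 lay inside the WT range.

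**Figure D4:**
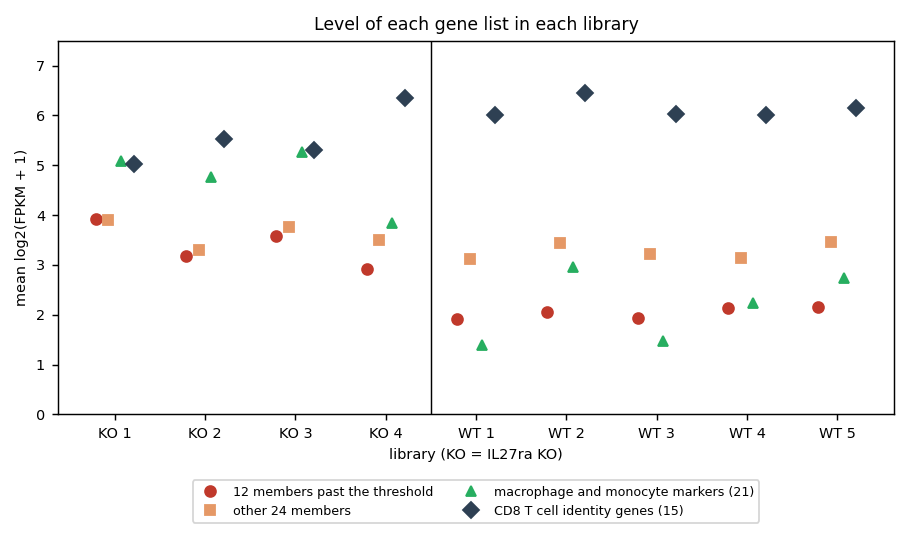
Mean log2(FPKM + 1) in each library, IL27ra KO left of WT, for the 12 members that passed, the other 24 members, and the macrophage and monocyte, and CD8 T cell identity markers. In the 12 members and in the macrophage markers every IL27ra KO library is above every WT library, and IL27ra KO replicate 4 is the lowest of its group in both.

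IL27ra KO replicate 4, the library of its group with the least macrophage, dendritic cell and melanoma marker RNA and the most CD8 T cell identity RNA, was compared alone with the 5 WT libraries as an alternative chosen after seeing the data. Limma assumes in that fit that the lone library varies like the others. No member passed, beside 2 of all 10374 genes, and 6 members had an unadjusted p under 0.05, beside 3.56% of all genes. Replicate 4 was above all 5 WT libraries in 19 of 36 members (52.8%, against 16% of all genes), and in 10 of the 12 that passed with all libraries. The 12 were called with replicate 4 among the libraries, so the count of 10 carries no test. It was the highest library of all for Oas3, Ifit1, Ifi47, Samhd1, Epsti1 and Ly6c2. Relative to the WT mean, Oas3 was 1.29 higher on the log2 scale in replicate 4 and 0.98 higher in replicates 1 to 3, while Oasl2 was 0.70 higher in replicate 4 and 2.58 higher in replicates 1 to 3. Oas2 and Usp18 were 2.06 and 1.23 higher in replicate 4, and 2.96 and 1.73 higher in replicates 1 to 3. Epsti1, whose function is poorly known, was 0.96 higher in replicate 4 and 0.07 higher in replicates 1 to 3.

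**Figure D5:**
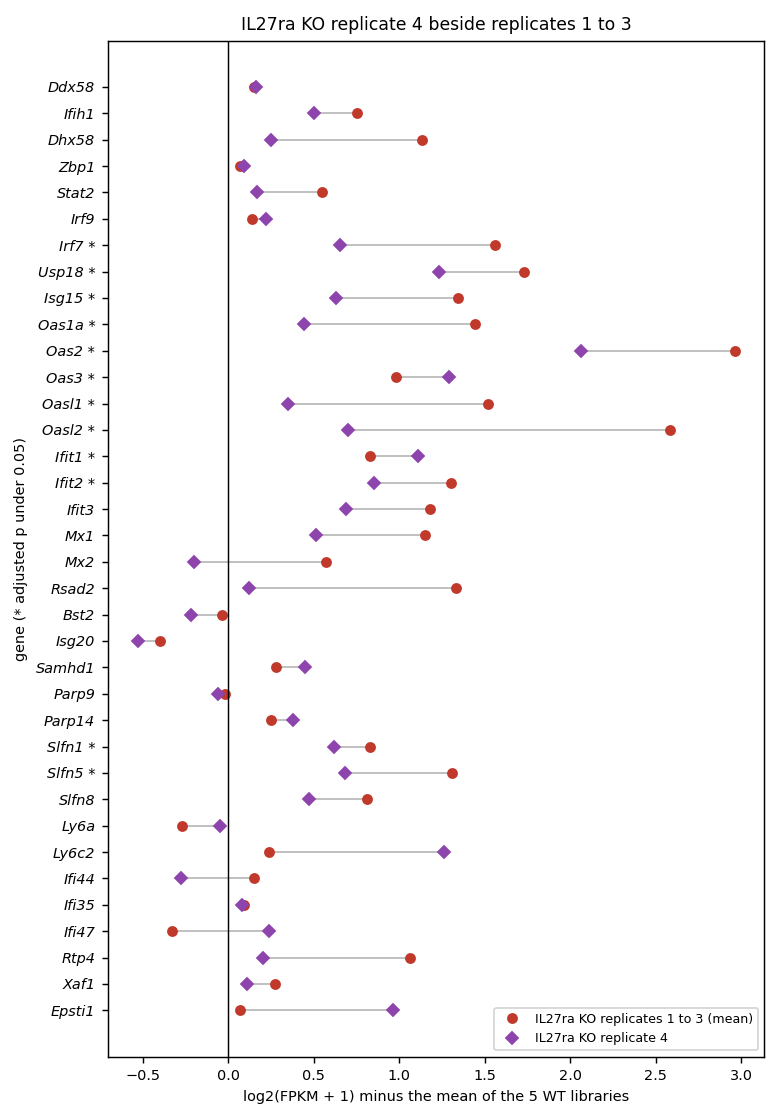
Log2(FPKM + 1) minus the WT mean (horizontal axis) of the 36 members (rows), with a diamond for IL27ra KO replicate 4 and a circle for the mean of IL27ra KO replicates 1 to 3. The diamond lies far to the left of the circle for Oasl2, Rsad2 and Oasl1, and far to its right for Ly6c2 and Epsti1.

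The calls of single members differed in how far they rested on 1 library. Oas2 and Usp18 passed in all 9 fits that left out 1 library, with limma adjusted p of at most 0.003 and 0.0116. Oasl2 lost its call without IL27ra KO replicate 3 (limma adjusted p = 0.0657). Ifit1, Isg15, Slfn5 and Irf7 lost theirs without IL27ra KO replicate 1 and without replicate 3, with limma adjusted p of at most 0.0861. Ifit2 lost its call in 4 of the fits, without IL27ra KO replicate 1 or 3 or WT replicate 1 or 3, and Slfn1 in 5, without IL27ra KO replicate 1, 2 or 3 or WT replicate 1 or 5. Oas3 lost it in 6, without any 1 of the IL27ra KO libraries or WT replicate 1 or 5. Oas1a and Oasl1 each lost it in 7, with highest limma adjusted p of 0.127 and 0.179. Leaving out IL27ra KO replicate 1, IL27ra KO replicate 3 or WT replicate 1 gave 3, 2 and 7 members past the threshold, against 12 with all libraries. Without the library labelled WT replicate 2 the count was 12.

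The genes upstream of the members moved in both directions. Of 32 interferon, receptor and signalling genes, 27 were tested, 3 rose, 2 fell, and the median log2 difference was 0.09. That was 11.1% higher and 7.41% lower, beside 3.13% and 1.11% of all genes. At an unadjusted p under 0.05 in limma, 7 of the 27 were higher and 2 lower, beside 9.33% and 5.74% of all genes. Ifna2 and Ifna4 were listed at 0 in all 9 libraries, Ifna1 in 8 and Ifnb1 in 7, with 0.51 and 0.37 FPKM of Ifnb1 in IL27ra KO replicates 3 and 4. Those values are near what 1 fragment is worth at this depth, so no difference in these interferon transcripts was detectable at this depth. Ifng, above 0 in all 9 libraries, averaged 16.4 ± 15 FPKM in IL27ra KO libraries and 30.4 ± 18.9 FPKM in WT libraries (SD, n = 4 and n = 5). Its log2 difference of -0.98 (95% interval -1.98 to 0.01) did not pass (limma adjusted p = 0.341). Of the IL27ra KO libraries, 3 lay below every WT library, and replicate 4, at 38.9 FPKM, did not. Ifnar1 averaged 21.5 ± 2.33 FPKM in IL27ra KO libraries and 21.8 ± 2.34 FPKM in WT libraries (SD, n = 4 and n = 5), with a log2 difference of -0.01 (95% interval -0.39 to 0.36). Ifnar2 had 24.3, 26.5, 20.6 and 29.8 FPKM in IL27ra KO libraries, against 15.3, 17.97, 14.8, 17.1 and 12.4 FPKM in WT libraries. Its groups did not overlap, and its log2 difference of 0.67 (SE 0.19) had a limma adjusted p of 0.0629.

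The 5 that passed in limma were Trim25, Tlr9, Ifngr2, Stat3 and Irf8. Trim25, a ubiquitin ligase that activates RIG-I, had a log2 difference of 1.00 (SE 0.23; limma adjusted p = 0.0250), the endosomal DNA receptor Tlr9 one of 1.63 (SE 0.41; limma adjusted p = 0.0398) and the interferon gamma receptor chain Ifngr2 one of 1.24 (SE 0.32; limma adjusted p = 0.0454). Stat3, which IL-27 also activates, averaged 27.2 ± 2.74 FPKM in IL27ra KO libraries and 60.4 ± 15.2 FPKM in WT libraries (SD, n = 4 and n = 5). It fell by 1.09 on the log2 scale (SE 0.22; limma adjusted p = 0.0116). Irf8, a transcription factor of myeloid and activated T cells, fell by 1.69 (SE 0.44; limma adjusted p = 0.0468). When the libraries were scaled to the CD8 T cell identity genes, Stat3 was at -0.52 and Irf8 at -1.15 and neither passed (limma adjusted p = 0.233 and 0.106). Only Stat3 of these kept its call in as many as 8 of the 9 fits that left out 1 library, losing it without IL27ra KO replicate 1 (limma adjusted p = 0.0572). Trim25, Ifngr2, Irf8 and Tlr9 lost theirs in 4, 5, 7 and 8 of the 9. With no filter the same genes lost their calls (limma adjusted p = 0.0582, 0.103, 0.119 and 0.0908). Tlr9 averaged 3.42 FPKM in IL27ra KO libraries and 0.186 FPKM in WT libraries, so it stayed in the test through its IL27ra KO values. With the macrophage marker level in the fit, the Tlr9 difference turned to -0.43.

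Of 53 further interferon-stimulated genes, 51 were in the table, 49 were tested, 6 rose and none fell in limma, with a median log2 difference of 0.33. At an unadjusted p under 0.05, 17 of the 49 were higher and 2 lower (Nlrc5 and Tnfsf10), beside 9.33% higher and 5.74% lower over all genes. Slfn4, a myeloid Schlafen gene, averaged 24 ± 19.5 FPKM in IL27ra KO libraries and 0.904 ± 0.702 FPKM in WT libraries (SD, n = 4 and n = 5), a log2 difference of 3.35 (SE 0.51; limma adjusted p = 0.0023). Oas1g, a neighbour and near-copy of Oas1a, averaged 4.48 ± 2.95 FPKM in IL27ra KO libraries and 0.520 ± 0.388 FPKM in WT libraries (SD, n = 4 and n = 5), a log2 difference of 1.72 (SE 0.35; limma adjusted p = 0.0109). How RSEM divided reads between such copies cannot be checked from FPKM. The others were Ifitm2, Ifitm3, Ms4a4c and Ifi204, with log2 differences between 1.52 and 2.38. Slfn4 passed in all 9 fits that left out 1 library and Oas1g in all but the one without IL27ra KO replicate 1 (limma adjusted p = 0.0508). Slfn4 and Oas1g both had a WT mean under 1 FPKM and stayed in the test through their IL27ra KO values. Ms4a4c, Ifitm2, Ifi204 and Ifitm3 lost their calls in 2, 3, 4 and 5 of the 9, and their differences turned negative with the macrophage marker level in the fit. Without IL27ra KO replicate 1 the count of 6 was 1, and without replicate 3 it was 2.

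The guanylate-binding and immunity-related GTPases respond chiefly to interferon gamma. Of 15 tested, none rose and 1 fell in limma. The median log2 difference was -0.27, with 12 of 15 negative, beside 0.72 for the antiviral members. When scaled to the CD8 T cell identity genes it turned to 0.25, with 5 of 15 negative, where the antiviral members had a median of 1.23. In IL27ra KO replicate 4 alone it was 0.01, with 7 of 15 negative, beside 0.44 for the antiviral members. It was negative in every other setting. The difference between these lists was not tested. At an unadjusted p under 0.05, 4 of the 15 were lower (Gbp5, Gbp6, Gbp10 and Tgtp1) and none was higher, beside the 5.74% and 9.33% of all genes given above. Gbp6 had 5.49, 6.10, 9.17 and 7.83 FPKM in IL27ra KO libraries, against 15.3, 12.4, 16.5, 13.6 and 16.1 FPKM in WT libraries. The groups did not overlap, and Gbp6 fell by 0.97 on the log2 scale (SE 0.19; limma adjusted p = 0.0097), a call that was lost without IL27ra KO replicate 1 (limma adjusted p = 0.0514), with CD8 scaling (-0.44; limma adjusted p = 0.296) and with scaling to total FPKM without Rn45s (-0.91; limma adjusted p = 0.0523). It was also lost with the macrophage marker level in the fit and in IL27ra KO replicate 4 alone. An ISRE core was present in all 10 of these genes that had a promoter window, beside 3.99% of all genes with a window. A GAS match was present in 7 of the 10, beside 9.55%.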

How the data were processed

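Bulk RNA of tumour-infiltrating CD8+ T cells was sequenced in 4 IL27ra KO and 5 WT libraries. The authors deposited 1 table of TMM-normalized FPKM, made from RSEM gene estimates per the labels. Per the submitters' processing notes, TopHat, RSEM, DESeq and build mm9 were used, with no versions, roles or order. No coordinates of that build are given. Promoters are RefSeq's in GRCm38.p6.

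FPKM are not counts, so log2(FPKM + 1) was fitted with limma 3.58.1 (lmFit, eBayes with trend) in R 4.3.3, IL27ra KO minus WT, over the 10374 genes that averaged 1 FPKM or more across the 9 libraries. P-values were adjusted by Benjamini and Hochberg's method, with the threshold at 0.05. Il27ra also had a two-sided exact permutation test over 126 splits. The 36 members, the gene lists and the rule for named genes were chosen with earlier results of these data known. Every member is accounted for. Each library's values are given for members past the threshold, the 4 largest and 4 smallest differences, and the member of each role with the highest mean. Other lists name genes past the threshold.

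Depth is not stated. Low values were compared with whole multiples of 1 fragment, using gene lengths of another annotation, and 62.9% to 68.4% lay within 0.1 of a whole number, where 20% would by an even spread. This estimate gave 2530000 to 3840000 fragments in IL27ra KO libraries and 1730000 to 4090000 in WT libraries. In these units 1 fragment in a transcript of 1 kb is worth 0.244 to 0.577 FPKM. The FPKM are TMM-normalized, so the estimate includes that scaling and may differ from the number of fragments sequenced. Whole reads were not recovered, so no count test was run. The ribosomal RNA gene Rn45s took 23.9% to 53.8% of summed FPKM, most in WT replicates 3 and 4. In data simulated for IL27ra KO against WT over 10374 genes with 200 changed, limma recovered 36%, 96% and 98.5% of changes of 1, 2 and 3 log2 units. The share of false calls was 0%, 8.13% and 8.37%. The simulation drew each gene independently, without the shared shifts of macrophage, melanoma and CD8 T cell RNA in these libraries. Its shares need not hold for the real data. Alternatives were 20 planned settings and 2 added after seeing the data.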

Additional observations from a re-analysis of the deposited data

Results flagged for a closer look

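Of 74 sets of group values examined (4 IL27ra KO or 5 WT libraries each), 6 held a library whose gap to its nearest neighbour was above the 95% critical value of Dixon's test, and chance gives about 1 in 20. Among the IL27ra KO libraries, replicate 1 stood apart at 13.11 FPKM for Ifit2, 14.24 FPKM for Mx1, 11.26 FPKM for Usp18 and 1.43 FPKM for Ifi44. IL27ra KO replicate 4 stood apart at 66.24 FPKM for Epsti1. The library labelled WT replicate 2 stood apart from the other WT libraries at 8.65 FPKM for Oas1a.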

How the results depend on the processing

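No member was lower past the threshold in any setting, and the cause of each change below was not tested. With 440 genes and 12 members past the threshold, and a median member difference of 0.72, other settings gave these values. A filter at 5 FPKM gave 219 genes, 7 of 26 members and a median of 0.39, and no filter gave 6 of 36 members. A pseudocount of 5 gave a median of 0.48, on a scale that shrinks differences. Scaling to CD8 T cell identity genes gave 690 genes (640 higher and 50 lower, against 325 and 115), 20 members (the 12 among them) and a median of 1.23, while moving the median of all genes to 0.50. Relative to that, the member median was 0.73, against 0.70. Quality weights gave 974 genes, and the macrophage covariate gave 7 genes, 0 members and 0.04. IL27ra KO replicate 4 alone gave 2 genes, 0 members and 0.44, and leaving out both WT replicates 3 and 4 gave 5 members. Leaving out 1 library gave 226 to 632 genes, 2 to 13 members and medians of 0.63 to 0.81. For Il27ra, those fits gave -1.42 to -0.88, quality weights -1.42 (limma adjusted p = 0.0012), and the macrophage covariate 0.62.

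The fit with the replicate number as a block gave 273 genes and 7 members, and Gbp6 (-0.94; limma adjusted p = 0.0589), Oas1g, Ifitm2, Stat3, Irf8, Trim25, Tlr9 and Ifngr2 lost their calls in it. Deviations of same-numbered libraries from their group means had correlations of 0.003, -0.008, -0.066 and -0.147. Those of differently numbered libraries lay between -0.072 and 0.126. With so few libraries, these values show no sign of pairing but cannot exclude a batch shared by same-numbered libraries. The labels do not say whether the numbers pair them. Over all settings, 0 to 14 of the further interferon-stimulated genes were higher (6 as reported) and 0 to 2 lower. Of the interferon, receptor and signalling genes, 0 to 7 were higher (3 as reported) and 0 to 3 lower (2 as reported).

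Signs turned for members as follows. With the macrophage covariate, Irf9 was -0.06, Rsad2 -0.07, Ifit3 -0.13, Oasl1 -0.17, Slfn5 -0.18, Zbp1 -0.27, Oas1a -0.35, Mx2 -0.48, Mx1 -0.52, Rtp4 -0.54, Dhx58 -0.65, Ifi35 -0.65 and Xaf1 -1.13, and Ifi47 and Parp9 were both 0.06. In IL27ra KO replicate 4 alone, Mx2 was -0.20 and Ifi47 0.24. CD8 scaling gave Isg20 0.11, Ly6a 0.36, Ifi47 0.38, Bst2 0.47 and Parp9 0.49. Parp9 was 0.07 with the block and 0.02 scaled to total FPKM without Rn45s, Xaf1 was -0.08 without WT replicates 3 and 4, and Bst2 was 0.04 with weights. Leaving out 1 library gave -0.14 to 0.07 for Parp9, -0.21 to 0.09 for Bst2, -0.42 to 0.05 for Ly6a, -0.06 to 0.26 for Zbp1 and -0.07 to 0.31 for Ifi35. Among members past the threshold, only Oasl1, Slfn5 and Oas1a turned, and only with the covariate.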
